A study of Mus musculus with 34 samples.

Results

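A set of 9 genes of central nervous system myelin, of the 23951 genes listed, was followed through the hippocampus and the cortical GFAP+ nuclei of aged mice: Mbp, Mag, Mog, Mobp, Cnp, Cldn11, Mal, Ugt8a and Opalin. They were chosen by symbol, and all 9 were found in every library. The study asked what loss of the histone deacetylase HDAC1 does to gene expression in the aged brain and in the 5XFAD model of Alzheimer's disease. RNA from the hippocampus was sequenced from 20 mice, 1 library per mouse, and RNA from GFAP+ nuclei sorted from frozen cortex was available as 7 libraries. All hippocampal mice carried the floxed Hdac1f/f allele. The 4 control mice had nothing further, the 5 Hdac1 cKO mice also carried Nestin-Cre, the 6 5XFAD mice carried the 5XFAD transgene, and the 5 compound mice (Hdac1 cKO; 5XFAD) carried both. The labels give an age of 13 to 14 months for control and Hdac1 cKO mice and of 13 months for 5XFAD and compound mice. Any difference in age thus cannot be told apart from the transgene. Mice without and mice with the transgene were also registered in separate runs of samples. Whether they were handled apart is not given, and any such difference cannot be told apart from the transgene either. Nestin-Cre acts in neural precursors, and the study describes loss of HDAC1 in neurons and astrocytes. It gives no such account for oligodendrocytes, the cells that make myelin. The 5XFAD transgenes express human genes with familial Alzheimer's disease mutations under the neuronal Thy1 promoter. The nuclei came from 3 control and 4 Hdac1 cKO libraries, with control 2 of the 4 listed not analysed here, and the study describes them as 4 animals a group at 13 months.

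Oligodendrocytes wrap axons in stacked layers of membrane, and the proteins of this membrane are made in large amount for as long as the sheath is kept. Mbp holds the cytoplasmic faces of compact myelin together, and Mobp is a smaller basic protein of the same layers. Cnp is found in the cytoplasmic channels, Mag on the membrane next to the axon, Mog on the outer surface, Cldn11 in the tight junctions that run through the sheath, Mal in lipid-rich membrane traffic and Opalin in the oligodendrocyte plasma membrane, while Ugt8a makes galactosylceramide, a main myelin lipid. In whole tissue, fewer oligodendrocytes and less RNA per oligodendrocyte cannot be told apart. Cldn11 is also made by cells of the meninges, and RNA of Mbp and Mobp is carried out along the processes to the sheath.

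Within groups the 9 genes tended to move together from mouse to mouse (median Pearson r of pairs 0.63, and 0.47 without compound mouse 4). Without that mouse Cnp had an r of only 0.24 with the mean of the others. The sequence before the start site is shown for 4 of the 9 genes, as listed by RefSeq on GRCm38.p6. An upstream sequence was matched for 8 of the 9 genes. The SOX core ACAAAG, or CTTTGT on the other strand, was searched because SOX10 is a transcription factor of oligodendrocytes. It lay within the 250 bases upstream of the start of 4 of the 8 genes (Mag, Mobp, Cnp and Opalin) and of 16.5% of all 32851 listed promoters. The GC box core GGGCGG, or CCGCCC on the other strand, lay upstream of 2 of the 8 (Cnp and Ugt8a) against 32.7% of all promoters, and the palindromic E-box CAGCTG upstream of 0 of 8 against 13.0%. These are matches of letters and no evidence of binding. The sequences run from 5′ to 3′ on the strand of the gene and end at the base before the start, with matches to the SOX core in capitals. Cldn11 is shown as the gene whose level differed between groups (chr3:31149670-31149919, plus strand, GC content 63.6%, no SOX core). Mag lies at chr7:30914923-30915172 on the minus strand, with 1 match that begins 67 bases before the start, and Opalin at chr19:41077114-41077363 on the minus strand, with 1 match that begins 139 bases before it. For Mag and Ugt8a the bases at the listed start were not found in the transcript, so their positions rest on the listed start alone. Mobp, at chr9:120149492-120149741 on the plus strand, held 6 matches.
Cldn11: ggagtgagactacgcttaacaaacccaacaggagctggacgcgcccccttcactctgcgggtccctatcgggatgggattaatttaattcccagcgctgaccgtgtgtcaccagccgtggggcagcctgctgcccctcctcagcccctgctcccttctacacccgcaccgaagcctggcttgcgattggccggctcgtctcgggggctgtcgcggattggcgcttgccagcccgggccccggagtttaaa
Mag: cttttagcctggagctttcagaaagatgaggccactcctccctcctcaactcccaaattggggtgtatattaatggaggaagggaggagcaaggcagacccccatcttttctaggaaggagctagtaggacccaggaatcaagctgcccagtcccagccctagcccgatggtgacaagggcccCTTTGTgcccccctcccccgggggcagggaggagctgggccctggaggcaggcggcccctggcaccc
Opalin: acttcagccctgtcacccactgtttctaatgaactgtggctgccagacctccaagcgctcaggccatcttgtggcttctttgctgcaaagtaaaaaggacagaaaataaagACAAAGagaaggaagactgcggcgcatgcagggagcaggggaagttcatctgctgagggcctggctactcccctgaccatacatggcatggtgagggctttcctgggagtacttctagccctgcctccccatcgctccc
Mobp: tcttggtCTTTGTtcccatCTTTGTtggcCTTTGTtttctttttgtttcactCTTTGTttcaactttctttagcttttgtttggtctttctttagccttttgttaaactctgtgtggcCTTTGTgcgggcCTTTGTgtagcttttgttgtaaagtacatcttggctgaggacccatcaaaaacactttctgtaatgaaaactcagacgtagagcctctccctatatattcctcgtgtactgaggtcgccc

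On mm9, the build the authors used, the annotation of GENCODE places Cldn11 on chromosome 3 from 31048868 to 31063246 and Mag on chromosome 7 from 31684202 to 31699851, and neither overlaps another gene. Cnp, on chromosome 11 from 100436218 to 100453043, overlaps Dnajc7 on the opposite strand, and Mog, on chromosome 17 from 37147691 to 37160343, overlaps a small non-coding 7SK copy. Mbp overlaps the pseudogene Rpl21-ps8 on the opposite strand. Whether strand was used in counting is not given in the sources used here, so reads of these overlapping genes may not have been kept apart.

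Hdac1 and Thy1 tested the labels. Hdac1 stood at 7.93 ± 2.20 FPKM (SD, n = 4) in control mice and 8.23 ± 1.56 (n = 6) in 5XFAD mice, against 2.74 ± 0.279 (n = 5) in Hdac1 cKO and 1.92 ± 0.516 (n = 5) in compound mice, with no overlap between mice with and without Nestin-Cre. Thy1, whose promoter drives the transgenes, stood between 303 and 388 FPKM in the 9 mice without 5XFAD and between 1563 and 2357 FPKM in the 11 mice with it. In the GFAP+ nuclei the groups overlapped for Hdac1, with 14.5, 9.91 and 22.3 FPKM in controls and 9.71, 11.6, 5.80 and 8.73 in Hdac1 cKO libraries. Relative depth ranged from 0.754 to 2.35 among hippocampal libraries and from 0.869 to 1.26 among nuclei, each against the set's control 1. The hippocampal dissections differed in bordering tissue. The summed level of 6 choroid plexus markers ran from 585 to 20330 FPKM in controls, from 59.6 to 1624 in Hdac1 cKO, from 56.0 to 7956 in 5XFAD and from 61.9 to 13994 FPKM in compound mice, and that of 6 thalamus markers from 23.2 to 67.8, 23.0 to 26.7, 20.6 to 125 and 20.5 to 28.3 FPKM in the same order. Mice of 1 group thus differed in how much bordering tissue they held. The part of that tissue in the levels of the myelin genes was not tested.

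In the hippocampus the myelin genes were abundant, and of the 9 only Cldn11 differed between the 4 groups by the limits used. Mbp was the highest, with 651 ± 29.4 FPKM (SD, n = 4) in control mice, and Ugt8a the lowest, with 7.35 ± 1.5 FPKM. Between them in control mice lay Cldn11 at 87.0 ± 7.03, Mal at 75.4 ± 5.74, Cnp at 70.4 ± 9.24, Opalin at 44.5 ± 9.21, Mag at 37.8 ± 5.63, Mobp at 36.1 ± 2.88 and Mog at 20.1 ± 4.12 FPKM. FPKM is a level per transcript length, and the order of genes is limited by the 3′ libraries, which read only the end of each transcript. The peripheral myelin markers of Schwann cells summed to between 3.0 and 5.9 FPKM over 6 genes in the 20 mice, against 859.6 to 1649.7 FPKM over the 9 myelin genes in the same mice. Of the 9 genes, 1 differed among the 4 groups in limma's moderated F test with Benjamini-Hochberg adjustment. It was Cldn11 (F = 9.43, adjusted p = 0.0252), against 1.89% of the 14389 genes tested. The adjusted p was 0.0532 without trend and robust moderation, 0.0683 with the replicate number as a block, and 0.0655, 0.0673 and 0.0545 without Hdac1 cKO mouse 4, Hdac1 cKO mouse 5 and compound mouse 2 (limma), so that the call was lost in each. Mag had an unadjusted p of 0.0364 (adjusted p = 0.329, limma) and Ugt8a of 0.0529 (adjusted p = 0.373, limma), and the other 6 genes had unadjusted p between 0.191 and 0.978.

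**Figure D1:**
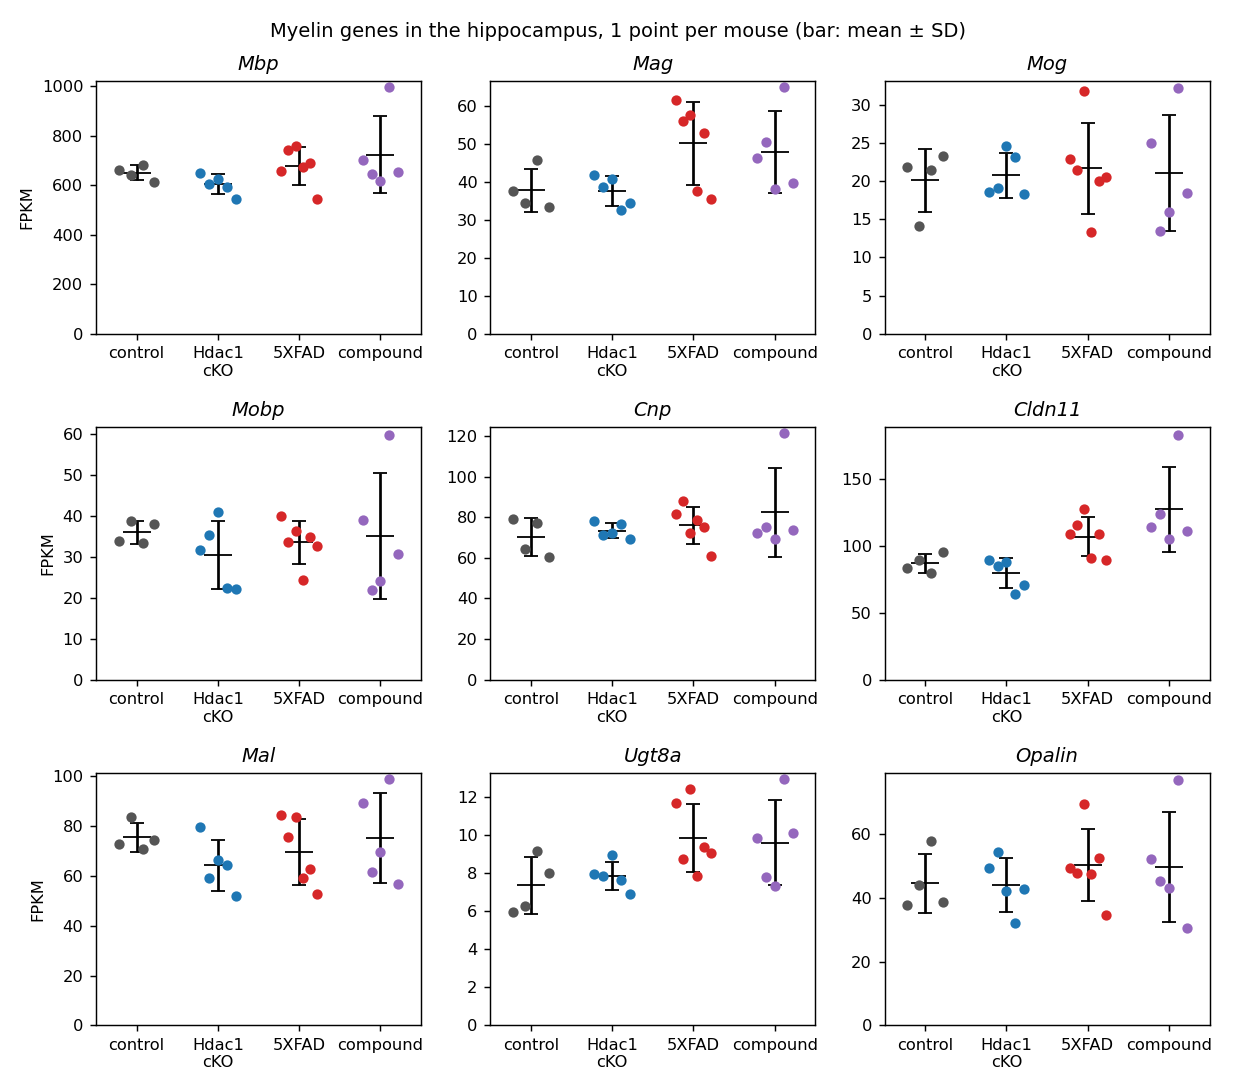
FPKM of the 9 myelin genes (vertical axes, each from 0) in 4 control, 5 Hdac1 cKO, 6 5XFAD and 5 compound mice, 1 point per mouse, with the mean and SD as bars. The groups overlap for every gene but Cldn11, whose compound mice (106 to 183 FPKM) all lie above the control and Hdac1 cKO mice, and compound mouse 4 is the highest compound mouse in each panel.

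Cldn11, the claudin of myelin tight junctions, was higher in compound mice than in Hdac1 cKO mice. It stood at 83.3, 89.8, 79.5 and 95.3 FPKM in control mice 1 to 4 and at 89.7, 85.2, 88.3, 64.4 and 70.9 in Hdac1 cKO mice 1 to 5. In 5XFAD mice it ran from 89.8 through a median of 109 to 128 FPKM, and in compound mice 1 to 5 it was 114, 124, 106, 183 and 112 FPKM. The lowest compound mouse was thus above every control and every Hdac1 cKO mouse, the 5XFAD mice were all above the Hdac1 cKO mice by a narrow margin, and control and Hdac1 cKO mice overlapped. The mean rose from 79.7 ± 11.4 FPKM (SD, n = 5) in Hdac1 cKO to 128 ± 31.8 (n = 5) in compound mice, a log2 fold change of 0.66 on the log2(FPKM + 1) scale (SE 0.15, 95% interval 0.34 to 0.97, adjusted p = 0.0432, limma). The two-sided exact permutation test of these mice gave p = 0.00794, the smallest that 5 against 5 mice can give. Without compound mouse 4 the log2 fold change was 0.52 and without Hdac1 cKO mouse 4 it was 0.58, both under the 1.5-fold limit, with adjusted p of 0.0417 and 0.114. Over 19 alternatives the fold change stayed between 0.52 and 0.72 and the adjusted p between 0.00727 and 0.182, under 0.05 in 9 of them, while 17 kept the fold rule. Among these 9 is the fold from mean FPKM, which keeps the p of the main fit and so adds no test of it.

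The other contrasts of Cldn11 were smaller and passed neither rule. Compound mice exceeded controls by 0.52 (95% interval 0.21 to 0.84, adjusted p = 0.182, limma) without overlap (two-sided exact permutation p = 0.0159). The 5XFAD mice exceeded controls by 0.29 (0.05 to 0.53, adjusted p = 0.375, limma) and Hdac1 cKO mice by 0.42 (0.17 to 0.67, adjusted p = 0.116, limma), the latter without overlap (exact permutation p = 0.0108). Hdac1 cKO mice differed from controls by -0.13 (-0.37 to 0.11), and compound from 5XFAD mice by 0.23 (-0.07 to 0.53). The interaction, which asks whether Hdac1 loss acts differently with 5XFAD, was 0.37 (-0.03 to 0.77, adjusted p = 0.588, limma). These contrasts share mice and are not independent of each other. Among meningeal cells, which also make Cldn11, a list of 6 fibroblast markers added after the data were seen summed to 59.0 to 73.6 FPKM in controls, 33.1 to 64.3 in Hdac1 cKO, 40.2 to 90.1 in 5XFAD and 41.6 to 70.5 in compound mice. In compound against Hdac1 cKO mice none of its 4 tested genes passed either limma rule or had an unadjusted p under 0.05 (median 0.144). In 5XFAD against Hdac1 cKO mice all 5 tested were higher (median 0.335), with 1 called by the fold rule, the transporter Slc6a13 (0.89, adjusted p = 0.225, limma). The same gene was called lower by the fold rule in Hdac1 cKO (-0.71, adjusted p = 0.276) and compound mice (-0.63, adjusted p = 0.455, limma) than in controls. It was also called lower in compound than in 5XFAD mice (-0.81, adjusted p = 0.734, limma). In each of these contrasts it was 1 of 5 tested, beside 3.36%, 4.24% and 1.28% of all genes. The part of meningeal cells in the Cldn11 level was not tested. Microglia moved with 5XFAD, from a summed level over 8 markers of 153 to 195 FPKM in controls and 162 to 184 in Hdac1 cKO to 335 to 431 in 5XFAD and 398 to 685 in compound mice. Of 8 astrocyte markers, 7 were higher in compound than in Hdac1 cKO mice (median 0.194). Called by both limma rules were 2 of the 8, Gfap (1.97, adjusted p = 4.48e-05) and Aqp4 (0.86, adjusted p = 0.0068), beside 3.55% and 1.49% of all genes. Of 6 hippocampal pyramidal and granule neuron markers, 5 were lower in this contrast (median -0.334). Among the 6, 4 had an unadjusted p under 0.05, beside 10.3% of all genes, and Dsp was called by the fold rule (-0.70, adjusted p = 0.233, limma). The part of these cell types in the Cldn11 level was not tested.

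Mbp, the most abundant of the 9, stayed within a narrow range. It was 663, 642, 684 and 616 FPKM in control mice and 649.9, 607, 628, 595 and 543 in Hdac1 cKO mice. It ran from 546 through 682 to 760.5 FPKM in 5XFAD mice and was 703, 646, 619, 999 and 656 in compound mice. Every group overlapped every other, and compound mouse 4 stood alone above 761. The difference of Hdac1 cKO from control was -0.11 on the log2 scale (95% interval -0.26 to 0.04), and that of 5XFAD from control 0.05 (-0.16 to 0.26). Mobp varied more, with 36.1 ± 2.88 FPKM (SD, n = 4) in control, 30.6 ± 8.32 (n = 5) in Hdac1 cKO, 33.7 ± 5.27 (n = 6) in 5XFAD and 35.1 ± 15.4 (n = 5) in compound mice. Its largest contrast with controls, that of Hdac1 cKO, was -0.27 (-0.64 to 0.10).

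Cnp, the enzyme of the cytoplasmic channels, was 79.3, 64.5, 77.1 and 60.5 FPKM in control mice and ranged from 69.3 to 77.9 FPKM in Hdac1 cKO, 61.1 to 87.8 in 5XFAD and 69.4 to 121 in compound mice. The groups overlapped throughout. Mag, the adhesion molecule next to the axon, was 37.7, 34.6, 45.8 and 33.3 FPKM in control and 41.8, 38.8, 40.7, 32.6 and 34.4 FPKM in Hdac1 cKO mice. In 5XFAD mice it ran from 35.4 through 54.4 to 61.6 FPKM, and in compound mice it was 46.3, 50.6, 38.1, 64.9 and 39.6 FPKM. Of the 6 5XFAD mice, 4 lay above every control and the other 2 lay among them. The log2 fold change of Mag was 0.38 in 5XFAD against control (95% interval 0.03 to 0.73, adjusted p = 0.427, limma) and 0.38 in 5XFAD against Hdac1 cKO mice (0.07 to 0.69, adjusted p = 0.330, limma). Mog, the outermost protein of the sheath, had means of 20.1, 20.7, 21.7 and 21.0 FPKM in control, Hdac1 cKO, 5XFAD and compound mice, and the lowest unadjusted p of its hippocampal contrasts was 0.682 (limma).

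Ugt8a, which makes galactosylceramide, was 5.96, 6.27, 9.14 and 8.01 FPKM in control mice and 7.93, 7.82, 8.93, 7.64 and 6.91 in Hdac1 cKO mice. It ran from 7.82 through 9.20 to 12.4 FPKM in 5XFAD and was 9.86, 7.78, 7.31, 12.9 and 10.1 FPKM in compound mice. Of the 6 5XFAD mice, 3 lay above every control and 3 among them, with a log2 fold change of 0.38 (95% interval 0.05 to 0.71, adjusted p = 0.400, limma). Mal, a lipid-associated membrane protein, differed from control by -0.24 in Hdac1 cKO mice (-0.49 to 0.01, unadjusted p = 0.0563, adjusted p = 0.441, limma), at 64.2 ± 10.2 (SD, n = 5) against 75.4 ± 5.74 FPKM (n = 4). Opalin had means of 44.5, 44.1, 50.2 and 49.6 FPKM in control, Hdac1 cKO, 5XFAD and compound mice, with SD between 8.47 and 17.1 FPKM, and its contrasts ran from -0.05 to 0.18.

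A gene was called when its fold change was at least 1.5 with an unadjusted p under 0.05 in limma, the limits of the study's methods, and separately when its adjusted p was under 0.05. For Hdac1 cKO against control mice, 0 of the 9 myelin genes passed either limma rule, against 3.36% and 0.154% of 14265 genes tested, and 0 had an unadjusted p under 0.05, against 11.7%. Their median log2 fold change was -0.015, 3 were higher and 6 lower, and all 9 intervals lay between -0.64 (Mobp) and 0.39 (Ugt8a). A loss of FPKM + 1 below 0.64 of its control value, or a gain above 1.31 times it, was therefore outside the interval of each gene.

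For 5XFAD against control mice, 0 of the 9 passed either limma rule, against 2.95% and 0.708% of 14402 genes, while 3 (Mag, Cldn11 and Ugt8a) had an unadjusted p under 0.05, each higher in 5XFAD, against 10.7% of all genes. The median was 0.113, and the intervals lay between -0.42 (Mal) and 0.73 (Mag). For compound against control mice, 0 of the 9 passed either limma rule, against 4.24% and 0.662% of 14348 genes, and only Cldn11 had an unadjusted p under 0.05, against 10.5% of all genes. Cldn11 was also the only one of the 9 whose groups did not overlap there, against 4.27% of the genes tested. The median was 0.131 and the intervals ran from -0.67 (Mobp) to 0.84 (Cldn11). Without compound mouse 4, Mog, Mobp, Mal and Opalin were lower than in controls, by -0.15, -0.34, -0.14 and -0.06. The other members stayed higher, from 0.01 (Mbp) and 0.05 (Cnp) to 0.39 (Cldn11).

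The next contrasts both use the 5 Hdac1 cKO mice, and in both most myelin genes had higher means with the transgene. In the first, fewer were higher without compound mouse 4. In compound against Hdac1 cKO mice 1 of the 9, Cldn11, passed both limma rules, against 3.55% and 1.49% of 14195 genes, and 1 of 9 did not overlap, against 3.34%. Mag also had an unadjusted p under 0.05, as did 10.3% of all genes (0.0348, log2 fold change 0.32, adjusted p = 0.423, limma). There 8 of 9 genes were higher and the median was 0.206. Without compound mouse 4, Mog, Mobp, Cnp and Opalin were lower, by -0.20, -0.07, -0.02 and -0.04. Every other member stayed higher, from 0.10 (Mal) to 0.52 (Cldn11). In 5XFAD against Hdac1 cKO mice 0 of the 9 passed either limma rule, against 3.10% and 1.58% of 14302 genes, and 3 (Mag, Cldn11 and Ugt8a) had an unadjusted p under 0.05, against 10.8% of all genes. All 9 were higher, with a median of 0.161, and Cldn11 alone did not overlap, against 2.41% of genes. Over all genes tested the median was -0.010 in the first contrast and -0.007 in the second, and in the others of this section it lay between -0.009 and 0.007.

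In compound against 5XFAD mice, the contrast of Hdac1 loss within the transgenic mice, 0 of the 9 passed either limma rule, against 1.28% and 0.00698% of 14326 genes, and 0 had an unadjusted p under 0.05, against 6.61%. The median was -0.018 and the intervals ran from -0.55 (Mog) to 0.53 (Cldn11). Without compound mouse 4 every member but Cldn11 (0.10) was lower, down to -0.23 for Mog and Mobp. For the interaction of Hdac1 cKO and 5XFAD, 0 of the 9 passed the fold rule in limma, against 4.07% of 14389 genes. None of the 9, and 0 genes in all (0%), had an adjusted p under 0.05, and 0 of the 9 had an unadjusted p under 0.05, against 8.97%. The interaction intervals were wide, from -0.75 (Mog) to 0.89 (Mobp).

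**Figure D2:**
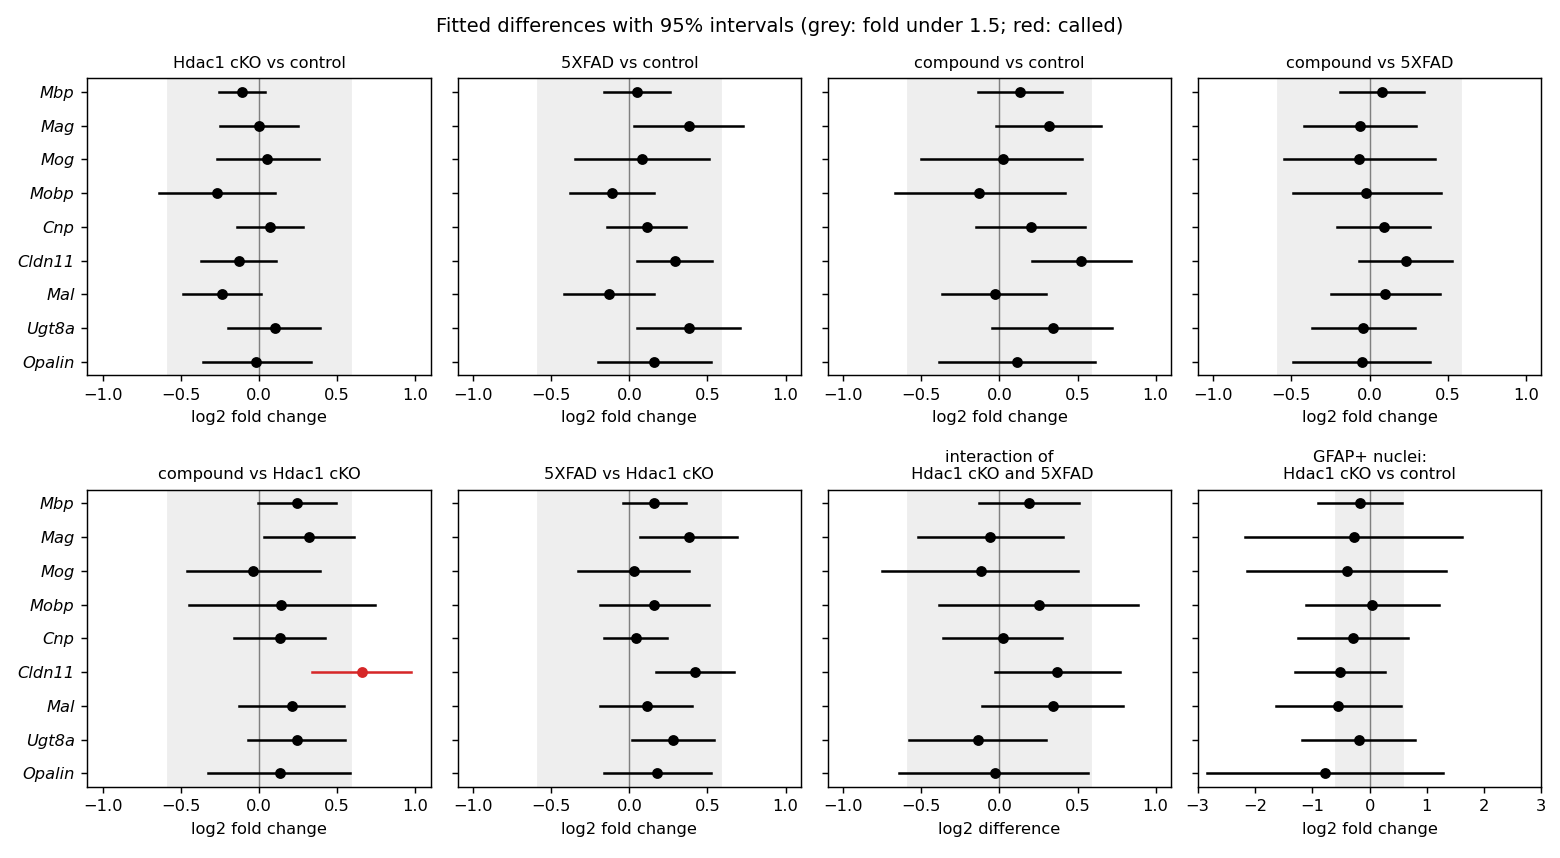
Log2 fold change (horizontal axes, on the log2(FPKM + 1) scale) of each myelin gene in 8 limma contrasts, with 95% intervals as lines and the range under 1.5-fold in grey; the axis of the nuclei is wider. Cldn11 in compound against Hdac1 cKO mice, in red at 0.66, is the only called gene, and the nuclei have the widest intervals, down to -2.84 for Opalin.

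Other genes of the oligodendrocyte lineage were counted from lists made with earlier results of these data known. Of 20 other myelin sheath and paranode genes, 0 were called by the fold rule in limma in Hdac1 cKO against control mice (0 by adjusted p, 5 or 25% with an unadjusted p under 0.05), beside 3.36%, 0.154% and 11.7% of all genes. Of the 20, 13 were lower, with a median log2 fold change of -0.154.

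Of the same 20 genes, Cd9 alone was called in 5XFAD against control (0.60, adjusted p = 0.228) and compound against control mice (1.03, adjusted p = 0.159), as 1 of 20 in each beside 2.95% and 4.24% of all genes. In these contrasts 4 and 3 of the 20 had an unadjusted p under 0.05, beside 10.7% and 10.5% of all genes. Cd9 rose by 1.51 in compound (adjusted p = 0.00179) and by 1.07 in 5XFAD (adjusted p = 0.000416) against Hdac1 cKO mice, all by limma. Cd9 is a tetraspanin of myelin that microglia and other cells also make, and 6 of 8 microglia markers were called higher by the fold rule in each of these contrasts, 5 by adjusted p in all but 5XFAD against Hdac1 cKO mice, where it was 6 and 1 of the 8 had a lower mean. The part of microglia in the Cd9 level was not tested. The interaction of Cd9 was 0.91 (unadjusted p = 0.00552, adjusted p = 0.385, limma). In 5XFAD against Hdac1 cKO mice 3 of the 20 were called by the fold rule, beside 3.10% of all genes, and 7 (35%) had an unadjusted p under 0.05, beside 10.8%. Among the 3 was Tmem63a, a membrane channel protein (0.68, adjusted p = 0.0187, limma).

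Of 10 myelin lipid and metabolite genes, 9 were lower in Hdac1 cKO than in control mice (median -0.392), 2 were called by the fold rule and 0 by adjusted p in limma, and 5 (50%) had an unadjusted p under 0.05, beside 3.36%, 0.154% and 11.7% of all genes. Among the 10, Trf, which carries iron, rose by 0.89 in compound (adjusted p = 0.00411) and by 0.85 in 5XFAD (adjusted p = 0.000402, limma) against Hdac1 cKO mice. In each contrast 1 of the 10, Trf, was called by both limma rules. Over all genes the shares were 3.55% and 1.49% in the first and 3.10% and 1.58% in the second. In each, 4 of the 10 had an unadjusted p under 0.05, beside 10.3% and 10.8%. Trf was 103, 94.7, 99.3, 82.7 and 82.6 FPKM in Hdac1 cKO and between 139 and 196 FPKM in 5XFAD mice, without overlap, which held for 2.41% of all genes. Enpp2, called by the fold rule, fell by 2.99 in Hdac1 cKO (adjusted p = 0.212) and by 2.54 in compound mice (adjusted p = 0.442), and the fatty acid elongase Elovl7 fell by 1.17, 0.79 and 0.65 in Hdac1 cKO, 5XFAD and compound mice against control (adjusted p = 0.0543, 0.182 and 0.476, limma). The choroid plexus makes Enpp2 and Trf too, and its markers were all called lower by the fold rule in Hdac1 cKO mice (6 of 6, none by adjusted p, 6 with an unadjusted p under 0.05, limma), Ttr by 5.57. Control mouse 1, with 576 FPKM of Ttr against 17490, 20150 and 12900 in controls 2 to 4, also had the lowest Enpp2 and Elovl7 among controls, at 68.5 and 4.75 FPKM. The part of choroid plexus in these values was not tested. The interaction of Elovl7 was 1.31 (adjusted p = 0.297, limma).

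Of 11 oligodendrocyte transcription factors, 0 were called by either limma rule in any hippocampal contrast, and between 0 and 2 of them had an unadjusted p under 0.05 in each, beside 1.28% to 4.24% of all genes by the fold rule and 6.61% to 11.7% by unadjusted p. Of 11 tested markers of precursors and newly formed oligodendrocytes, 0, 0 and 1 were called by the fold rule in Hdac1 cKO, 5XFAD and compound against control mice and 0 by adjusted p in each, with 0, 1 and 1 at an unadjusted p under 0.05 (limma). Over all genes the shares were 3.36%, 2.95% and 4.24% by the fold rule, 0.154%, 0.708% and 0.662% by adjusted p and 11.7%, 10.7% and 10.5% by unadjusted p. The call was C1ql1 in compound mice (0.59, adjusted p = 0.200, limma), and Enpp6, a marker of newly formed cells, was called against Hdac1 cKO mice in compound (0.61, adjusted p = 0.421) and 5XFAD mice (0.71, adjusted p = 0.251, limma), as 1 of 11 in each beside 3.55% and 3.10% of all genes. In these contrasts 3 and 2 of the 11 had an unadjusted p under 0.05, beside 10.3% and 10.8%.

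Within the groups the 9 myelin genes tended to rise and fall together from mouse to mouse, less so without compound mouse 4. Each mouse's log2(FPKM + 1) was set against its group mean. Over the 20 mice, all 36 pairs of the 9 genes had a positive Pearson r of these deviations, from 0.39 (Cnp with Ugt8a) to 0.86 (Mbp with Cnp), with a median of 0.63. Each gene's r with the mean of the other 8 ran from 0.64 for Cnp to 0.87 for Mbp, and without compound mouse 4 from 0.24 for Cnp to 0.78 for Mag. The mean deviation of the 9 genes was 0.57 in compound mouse 4, with all 9 above the group mean, and between -0.26 and 0.27 in the other 19 mice. In 5XFAD mouse 6, Hdac1 cKO mouse 5 and compound mouse 3, 0 of the 9 lay above the group mean. Compound mouse 4 raised the mean of its group, and without it 2 of the 9 lay above that mean in compound mouse 3.

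Compound mouse 4 carried much of the common movement. It had 999 FPKM of Mbp, 121 of Cnp, 183 of Cldn11 and 59.9 of Mobp, each the highest of the 20 mice. Its summed microglia markers were also the highest, at 684.5 FPKM against 398 to 547.5 in the other compound mice, and its summed astrocyte markers reached 1312 against 1166 to 1275 FPKM. Its summed neuron markers were the lowest of the group, at 1523 against 1591 to 1789 FPKM, and its relative depth of 2.24 was the highest of its group. The part of these in its myelin genes was not tested. Without it, the median r of the 36 pairs was 0.47, 35 were positive and the lowest was -0.10 (Mobp with Cnp).

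The spread within groups was high for several of the 9. The within-group SD of Mobp (0.37 on the log2 scale), Opalin (0.35) and Mog (0.36) exceeded that of 94.8%, 94.7% and 93.2% of genes of like level, that is within 0.5 log2 of their mean, whose median SD lay between 0.18 and 0.20. Mbp (0.18) and Ugt8a (0.23) lay at 64.6% and 50.5%.

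**Figure D3:**
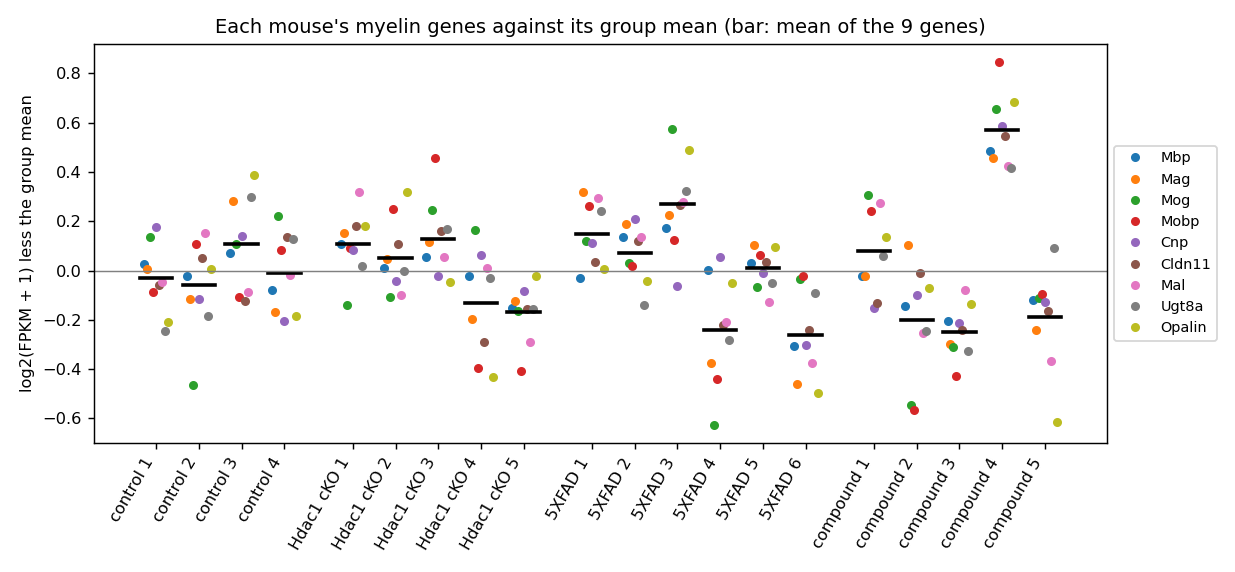
Deviation of each of the 9 myelin genes from its group mean in log2(FPKM + 1) (vertical axis) for the 20 hippocampal mice (horizontal axis), 1 coloured point per gene, with the mean of the 9 as a black bar. All 9 points of compound mouse 4 lie above 0 with a mean of 0.57, and the means of the other mice lie between -0.26 and 0.27.

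Among the 10 genes outside the 9 whose deviations were most like their mean over the 20 mice, of 14389, were Qdpr (r = 0.90), Ctsb (0.85), Trf (0.84), Zfyve26 (0.84), Apoc4 (0.79), Tlr2 (0.79), Padi2 (0.79), Gbp2 (0.77) and Samm50 (0.77). The 20 points share each library's depth and dissection, and no p is given. Without compound mouse 4, 3 of the 10 stayed among the first 10, Qdpr (0.81) and Zfyve26 (0.72) among them, and Gng11 (0.87) came first.

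In cortical GFAP+ nuclei all 9 myelin genes were present, although the sort was for an astrocyte protein. The libraries were made by another method, so the levels are set side by side with no test. Mbp had a median of 363 FPKM over the 7 nuclear libraries and of 653 FPKM over the 20 hippocampal libraries, Mag of 39.9 and 40.2, Mog of 22.3 and 21.0, Opalin of 46.5 and 46.4, and Cnp of 83.3 and 74.4 FPKM. The other members were lower in the nuclei, with medians of 15.8 against 93.2 FPKM for Cldn11, 36.7 against 70.2 for Mal, 4.66 against 8.36 for Ugt8a and 23.9 against 33.8 for Mobp. Astrocyte markers summed to between 2860 and 3541 FPKM over 8 genes in the nuclei, against 967 to 1312 in the tissue, and neuron markers to between 184 and 272 FPKM against 1468 to 1867. The 11 oligodendrocyte transcription factors summed to between 363 and 576 FPKM in the nuclei and to between 100.4 and 133 in the tissue. The source of the myelin RNA in these sorted nuclei was not tested.

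The highest nuclear library exceeded the lowest by between 2.55-fold (Mbp) and 8.33-fold (Opalin), and the highest hippocampus the lowest by between 1.84-fold (Mbp) and 2.85-fold (Cldn11). For Mobp the ranges were close, at 2.79-fold and 2.74-fold. Opalin was 21.4, 46.5 and 56.0 FPKM in controls 1, 3 and 4 and 6.72, 13.8, 47.1 and 48.5 in Hdac1 cKO 1 to 4. Mbp was 349.7, 637.5 and 363 FPKM in controls and 250.2, 302, 535 and 549.6 in Hdac1 cKO libraries. Cldn11 was 11.1, 24.1 and 20.6 FPKM in controls and 6.99, 9.88, 19.2 and 15.8 in Hdac1 cKO libraries. Hdac1 cKO 1 and 2 were low and 3 and 4 high for each of the 9 genes, control 1 was the lowest control for 8 of 9, and the groups overlapped for all 9. The mean deviation of the 9 genes was -0.94, -0.55, 0.81 and 0.68 in Hdac1 cKO 1 to 4 and -0.58, 0.52 and 0.06 in controls 1, 3 and 4. All 36 pairs had a positive r over the 7 libraries, with a median of 0.95. Microglia markers split in the same way, with summed levels of 38.4, 41.8, 87.1 and 93.0 FPKM in Hdac1 cKO 1 to 4 and 50.4, 84.6 and 60.3 in the controls. Summed astrocyte markers were 3449, 3056, 3541 and 3371 FPKM in Hdac1 cKO 1 to 4. The part of other cell types in the myelin levels was not tested.

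Between the groups of nuclei, 0 of the 9 passed the fold rule in limma, against 2.58% of 15070 genes, 0 passed by adjusted p, against 0.0133%, and 0 had an unadjusted p under 0.05, against 4.70%. Of the 9, 8 were lower in Hdac1 cKO libraries and only Mobp was higher, with a median of -0.290. Without control 3, Mbp (0.12), Mag and Ugt8a were higher as well. Each of these changed sign in 2 of 15 alternatives, and Mobp in 3. The intervals were wide, from -2.84 for Opalin, or 0.14 of the control FPKM + 1, to 1.61 for Mag, or 3.05 times it. Each reached further to either side of its estimate than the 0.66 of Cldn11 in the hippocampus. Cldn11 itself was -0.52 (95% interval -1.30 to 0.27, adjusted p = 0.984, limma). Without control 1 it was -0.83 with an unadjusted p of 0.0407 and passed the fold rule (adjusted p = 0.980, limma). Of the other oligodendrocyte lists, 1 of 11 transcription factors (Nkx6-2) and 0 of 20 sheath, 0 of 10 lipid and 0 of 12 precursor genes were called by the fold rule, beside the 2.58% of all genes. It was 41.4, 75.7 and 43.7 FPKM in controls and 20.03, 18.5, 25.1 and 30.5 in Hdac1 cKO libraries, lower by 1.12 on the log2 scale with no overlap of the groups, which held for 5.72% of all genes (SE 0.24, unadjusted p = 0.000744, adjusted p = 0.978, limma). In the hippocampus Nkx6-2 ranged from 10.5 to 19.98 FPKM in Hdac1 cKO and from 12.1 to 17.7 in control mice, with overlap.

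**Figure D4:**
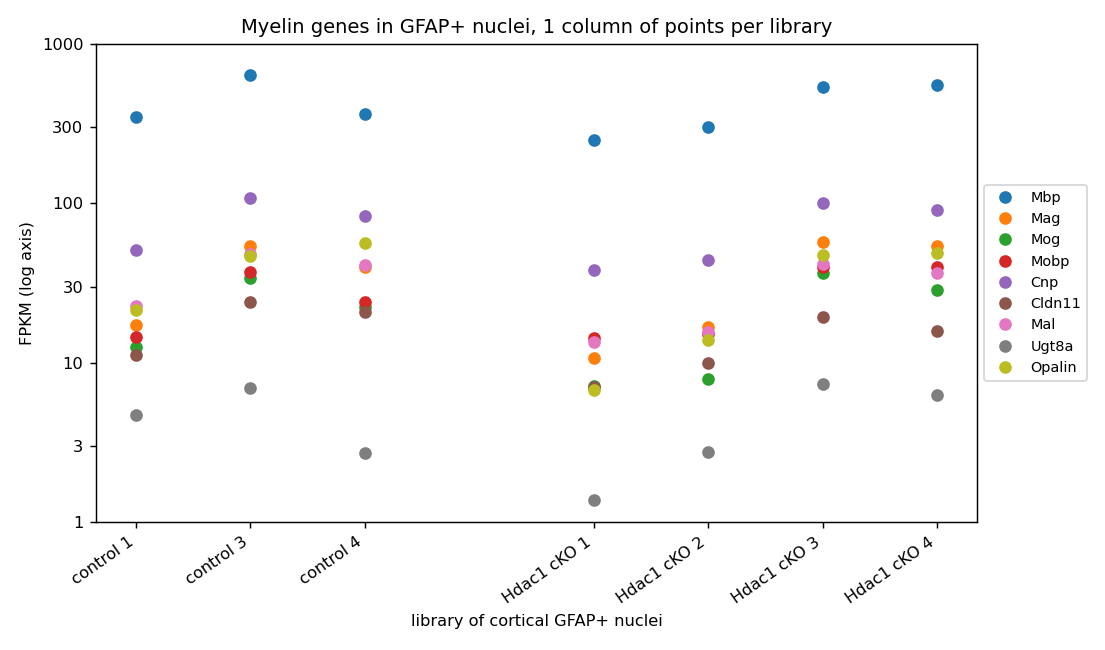
FPKM (vertical log axis) of the 9 myelin genes in 3 control and 4 Hdac1 cKO libraries of cortical GFAP+ nuclei, 1 coloured point per gene. The points of Hdac1 cKO 1 and 2 lie below those of 3 and 4 for all 9 genes, with Opalin from 6.72 to 48.5 FPKM.

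The proportions among the 9 differed between the sources, as described by each gene's percent of Mbp in the same library. Cldn11 had a median of 15.5% of Mbp in the hippocampus (10.8% to 19.2% over 20 libraries) and of 3.27% in GFAP+ nuclei (2.80% to 5.69% over 7), without overlap. Cnp was higher in nuclei, at 16.5% (14.5% to 23.0%) against 11.6% (9.51% to 12.9%), also without overlap. Mal was 10.4% in the hippocampus and 6.68% in nuclei, Mag 6.46% and 8.45%, Mog 3.18% and 5.18%, Mobp 4.97% and 5.84%, Opalin 7.02% and 7.30% and Ugt8a 1.29% and 1.08%, each with overlapping ranges. Region, compartment and library method differ together between the sources and cannot be told apart.

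**Figure D5:**
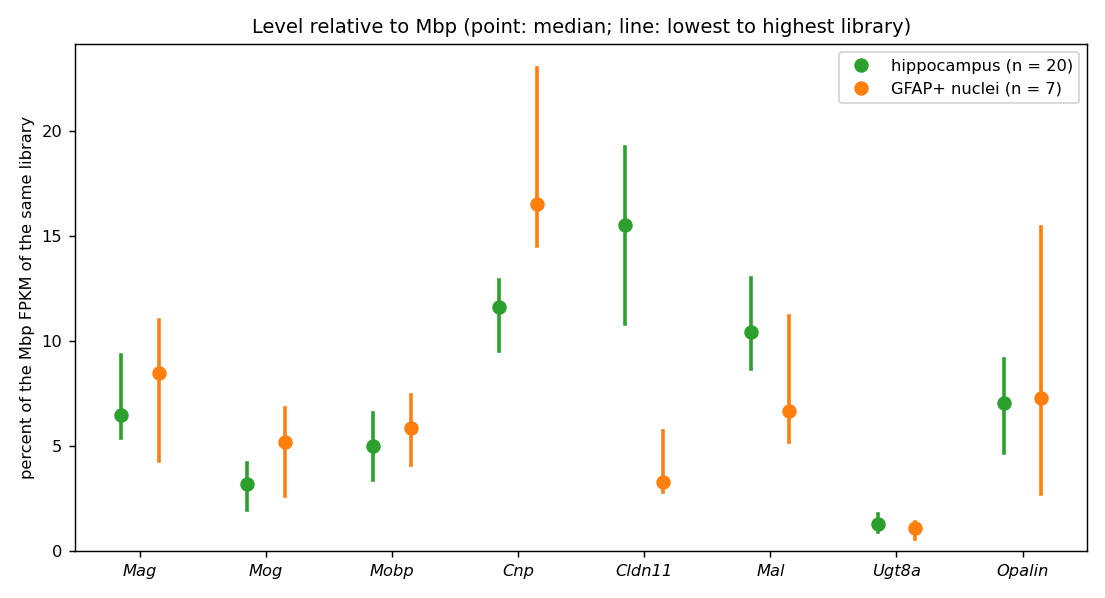
Level of 8 myelin genes as a percent of the Mbp FPKM of the same library (vertical axis), as median and full range over 20 hippocampal libraries (green) and 7 libraries of GFAP+ nuclei (orange). The ranges are apart for Cldn11 (medians 15.5% and 3.27%) and Cnp (11.6% and 16.5%) and overlap for the other 6 genes.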

How the data were processed

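The deposited files hold FPKM values, 1 per gene and library, which the authors computed for the hippocampus from 3′ Digital Gene Expression reads with Tophat2 and Cufflinks 2.0.0 and the UCSC mm9 annotation; the GFAP+ nuclei were made into SMART-Seq v4 libraries, and their alignment is not given in the sources used here. No counts were used: the depth behind a value is unknown beyond the relative depth read from the smallest steps between values. The members and lists were chosen with earlier results of these data known. On the log2(FPKM + 1) scale, limma was run on every gene whose mean over the compared libraries reached 0.5 FPKM (limma 3.58.1, R 4.3.3; trend and robust moderation, Benjamini-Hochberg adjustment over all genes tested, only the groups compared in each fit, except the interaction and the F test over 20 mice). The fit was tested on simulated data first. Single members were tested with two-sided exact permutation tests of mice.

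The genes named are the 9 members, Hdac1 and Thy1 as checks, up to 3 called genes with the largest change per other oligodendrocyte list and contrast, and the 10 genes most like the members; Ttr, Slc6a13, Gfap, Aqp4 and Dsp were named after their values were seen, and the list of meningeal markers was added then. The alternatives tried were 0.1 as the pseudocount, a lower limit of 1 FPKM or none, median scaling, quantile normalization, limma without trend and robust moderation, a replicate block, 1 fit over all 4 hippocampal groups, the fold from mean FPKM, an adjusted p for the interaction and leaving out each library. A change of sign of an uncalled fold change was counted but not read as a reversal. The 6 ChIP-seq samples and control 2 of the nuclei were not analysed here. Some genes that this rule would name are not reported here.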

Additional observations from a re-analysis of the deposited data

Results flagged for a closer look

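Over 45 sets of values (9 genes in 5 groups of 4 to 6 libraries), 3 had a sample whose gap to its nearest neighbour, as a share of the range of log2(FPKM + 1) of its group, exceeded Dixon's 95% limit, where chance gives about 1 in 20. Mog in control mouse 2 was 14.1 FPKM, against 21.4 in the next control (share 0.838). Mbp in compound mouse 4 was 999 FPKM, against 703 in the next compound mouse (share 0.736). Cnp in the same mouse was 121 FPKM, against 75.2 in the next (share 0.856). The other 7 myelin genes of compound mouse 4 were also the highest of its group but did not pass this limit.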

How the results depend on the processing

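The count of myelin genes called by the fold rule was 0 under every alternative run for Hdac1 cKO, 5XFAD and compound against control, compound against 5XFAD, 5XFAD against Hdac1 cKO and the interaction. For compound against Hdac1 cKO it was 1 (Cldn11) under all 9 other settings by the fold rule, although its adjusted p was 0.0737 with no filter, 0.105 without trend and robust moderation and 0.182 with the block (limma), and between 0 and 1 with a mouse left out, being 0 without Hdac1 cKO mouse 4 or compound mouse 4. By adjusted p, the count for any difference among the 4 hippocampal groups was 0 without trend and robust moderation (Cldn11 adjusted p = 0.0532, limma) and 0 with the replicate block (adjusted p = 0.0683, limma), and between 0 and 1 with a mouse left out, being 0 without Hdac1 cKO mouse 4 or 5 or compound mouse 2. For the nuclei the count by the fold rule was between 0 and 1, being 1 (Cldn11) without control 1. The cause of these losses and gains was not tested.

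Same-numbered mice did not deviate together (r between -0.11 and 0.09), so the numbers were not taken to pair samples. In the replicate block Cldn11 was still called by the fold rule in compound against Hdac1 cKO mice. Of 72 fold changes, 43 kept their sign under every alternative run. The other 29 lay between -0.28 and 0.14, with unadjusted p of 0.341 or more. Over all genes, a pseudocount of 0.1 raised the calls from 425 to 641 in 5XFAD against control, from 184 to 325 in compound against 5XFAD and from 444 to 686 in 5XFAD against Hdac1 cKO mice, and the fold from mean FPKM to 688, 341 and 705. By adjusted p the interaction gave 0 calls in place of 586.

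The files give no counts, which limits what can be said of the precision of single values, and the 7 nuclear libraries leave intervals too wide to bound the members' changes.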
